A study of Mus musculus with 125 samples.

Results

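The 6 membrane transporters of the brain vessel wall Abcb1a, Abcg2, Abcc4, Slco1c1, Slco1a4 and Slco2b1 were followed through mouse development in brain endothelial cells and in endothelial chromatin of several organs. They are 6 of the 27998 genes in the single-cell tables and 6 of the 21883 protein-coding genes whose surroundings were searched for open chromatin. They were chosen by name as transporters, with earlier results of these data known. All 6 were found in both kinds of file.

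Endothelial cells of the brain form the blood-brain barrier: tight junctions close the path between cells, so what enters the brain must cross the cells themselves. ATP-binding cassette (ABC) pumps in the luminal membrane use ATP to return lipophilic drugs and conjugated anions to the blood. Solute carriers of the organic anion transporting polypeptide (SLCO) family take up hormones, steroid conjugates and bile acids without using ATP. Abcb1a encodes P-glycoprotein, Abcg2 the breast cancer resistance protein, and Abcc4 a multidrug resistance-associated protein that exports cyclic nucleotides and conjugated anions. Slco1c1 encodes a high-affinity carrier of the thyroid hormone thyroxine, Slco1a4 a broad carrier of organic anions and cardiac glycosides, and Slco2b1 a carrier of steroid sulphates.

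Single-cell RNA-seq covered 5 brain libraries, 1 each from adult mice (2 months), P8 pups and embryos of E16.5, E12.5 and E9.5. Cells had been enriched with magnetic beads against CD31. The 3 embryonic libraries came from whole brain digested with collagenase, and the P8 and adult libraries from cortex opened with a neural tissue kit, so age, region and dissociation cannot be told apart between E16.5 and P8. A further assay, ATAC-seq, which maps open chromatin, covered 66 libraries of nuclei, of which 37 were labelled endothelial and 29 input, meaning nuclei of the whole tissue. Brain and retina, whose vessels form barriers, are called barrier organs here, and heart, kidney, liver, lung and E12 trunk peripheral organs. Adult mice of the ATAC-seq groups, inputs included, were also 2 months old. Adult endothelial groups had 2 libraries each in the 6 organs. The P6 groups had 3 each for brain and retina and 2 each for the other 4 organs. The E12 groups had 3 for brain and 4 each for heart and trunk, and inputs had 1 to 3 per group. All mice of the ATAC-seq groups, inputs included, had received tamoxifen at 0.015 mg/kg to switch on a GFP reporter in vessels, and only tissue with visible GFP in vessels was kept. The labels do not name the driver of the recombinase or the strain. They call the young group P6, while the protocol places its collection at P7, and the embryonic ATAC-seq group E12, where the protocol has E12.5. The deposited matrix labelled E16.5 carries a later embryonic day in its own name; the label was followed, so the age of that library is uncertain. Nothing in the labels says whether replicates came from separate animals, so p-values measure only the spread between these libraries.

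In the single-cell files a barcode was taken as endothelial when it held at least 200 genes, a mitochondrial share of at most 10% and at least 3 of Cdh5, Pecam1, Egfl7, Esam, Tie1 and Kdr. This kept 3154 adult barcodes, 4778 of P8, 3786 of E16.5, 6347 of E12.5 and 5644 of E9.5, with median UMIs per barcode of 4896 to 10469. Levels are given as UMIs per 1000000 UMIs of those barcodes (CPM). The kit counts 1 tag at the 3′ end of each molecule, so these levels do not scale with transcript length. Intervals are exact Poisson 95% intervals. With 1 library per age they cover counting error only, and no test between ages was possible. At E9.5, 7279 of 17176 barcodes exceeded the mitochondrial limit. Pairs of libraries shared 0 to 50 barcode sequences. Summed markers of pericytes ranged from 5.84 CPM at E9.5 to 1461 in the adult, and haemoglobin genes and other erythroid markers from 2363 at E9.5 to 16090 at P8. Choroid plexus markers ranged from 33.9 to 495, with Ttr and Clic6 at 0 UMIs in the adult. ATAC lists held 19464 to 144197 peaks from 10139069 to 59082479 tags. The shortest endothelial lists of each age were adult lung replicate 2 with 19464 peaks, P6 brain replicate 1 with 27160 and E12 heart replicate 3 with 39096. Starts of Egfl7, Kdr and Tie1, the 3 endothelial genes of the rule that were matched to a start, carried a peak in 37 of 37 endothelial libraries and in 24, 24 and 20 of 29 inputs.

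The upstream sequences of 3 members are printed because their start sites showed 3 patterns of open chromatin. The start of Abcg2 (chr6, position 58640546) had a peak in 37 of 37 endothelial libraries. That of Abcb1a (chr5, position 8567091) had one in 23 of 37, and that of Slco1c1 (chr6, position 141524354) in 20 of 37. Each is the 250 bases before the start, on the gene's strand, 5′ to 3′, from RefSeq on GRCm38.p6. They lie at chr5:8566841-8567090, chr6:58640296-58640545 and chr6:141524104-141524353, all on the plus strand. Capitals mark matches to the 7 short motifs searched.

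Abcb1a: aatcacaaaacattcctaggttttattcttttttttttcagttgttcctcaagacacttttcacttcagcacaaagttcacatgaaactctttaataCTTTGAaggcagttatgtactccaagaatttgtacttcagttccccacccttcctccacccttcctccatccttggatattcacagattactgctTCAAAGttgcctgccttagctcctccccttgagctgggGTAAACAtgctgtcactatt

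Abcg2: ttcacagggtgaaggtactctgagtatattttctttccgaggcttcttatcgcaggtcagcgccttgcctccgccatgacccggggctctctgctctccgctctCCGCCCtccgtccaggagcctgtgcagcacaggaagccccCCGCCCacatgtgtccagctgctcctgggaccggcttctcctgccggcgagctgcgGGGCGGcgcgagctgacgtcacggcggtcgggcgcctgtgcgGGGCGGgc

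Slco1c1: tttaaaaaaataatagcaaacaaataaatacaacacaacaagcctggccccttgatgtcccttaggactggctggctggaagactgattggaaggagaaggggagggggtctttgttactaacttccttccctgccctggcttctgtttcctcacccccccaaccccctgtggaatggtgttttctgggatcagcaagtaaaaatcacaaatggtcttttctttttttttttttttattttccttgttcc

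The Abcg2 window held 67.6% G and C and 23 CpG dinucleotides, against medians of 52.4% and 6 over 32812 upstream windows of the same length. Abcb1a had 40.4% and 0 CpG, and Slco1c1 42.8% and 0 CpG. The other 3 members were matched too: Abcc4 had 72.0% and 35 CpG, Slco1a4 39.2% and 0, and Slco2b1 53.6% and 2. The 2 windows with the most CpG, those of Abcg2 and Abcc4, were open in all 37 endothelial libraries. With the same number of top peaks taken from each list, this held for Abcg2 only. The search covered CTTTGA (the TCF/LEF core), CCGGAA (ETS), TGTTTAC (forkhead), TGANTCA (AP-1), GCGTG (aryl hydrocarbon receptor), GGGCGG (GC box) and TATAAA (the core promoter element bound by TBP), on both strands. In the order given, 13.8%, 12%, 3.16%, 6.75%, 28.1%, 32.7% and 12.4% of all windows hold each. No motif overlapped another in the 3 printed windows. Abcb1a held CTTTGA at 2 positions, -153 to -148 and, on the opposite strand, -58 to -53, and the forkhead letters at -20 to -14. Abcg2 held 4 GC boxes. Abcc4 held 3 GC boxes and 2 aryl hydrocarbon receptor cores. None of these letters occurred in the windows of Slco1c1, Slco1a4 and Slco2b1. A match is a string of letters, not a measured binding site.

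The members reached their adult levels at different ages. In the adult library 6 of 6 members were at least 2-fold above E9.5, a mark that 34.5% of the genes at 20 CPM or more in either library reached. All but Abcg2 stood at 0 to 1.77 CPM at E9.5 and entered through the adult library alone, so nothing is read from this count against that share. Abcg2 led at E9.5 and E12.5, Slco1c1 at E16.5 and P8, and Slco1a4 and Slco1c1 in the adult, where their intervals overlap (1696 to 1729 and 1687 to 1721 CPM). Slco2b1 was the 1 member of the 6 whose adult level was below its P8 level.

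Among the efflux pumps, Abcb1a was at 0.394, 25.5, 111, 276 and 1076 CPM from E9.5 to adult. It was higher at each later age: 64.8-fold at E12.5 over E9.5 (interval 40.9 to 109.5, from 18 UMIs at E9.5), 4.36-fold at E16.5, 2.48-fold at P8 and 3.90-fold in the adult. Barcodes with at least 1 UMI of Abcb1a made up 0.319%, 22.1%, 56.9%, 81.4% and 96.4% in order of age. When each barcode was thinned to 2000 UMIs the shares were 0.0745%, 4.65%, 18.0%, 41.8% and 86.1%. In barcodes with none of the 6 endothelial genes the adult level was 43.2 CPM, and 9.09% of them had a UMI at a median depth of 2463.5 UMIs against 4896 in the endothelial ones.

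Abcg2, the pump for many anticancer drugs, was present from the first age. Its levels were 125.3, 400.0, 387, 355 and 1107 CPM. It was 3.19-fold higher at E12.5 than at E9.5 (interval 3.10 to 3.28), lay at 0.967 and 0.917 of the preceding level at E16.5 and P8, and was 3.12-fold higher in the adult than at P8. The E9.5 level has to be read against 96.4 CPM in barcodes of the same library with none of the endothelial genes, a ratio of 1.30. At E12.5 that ratio was 8.67.

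Abcc4, the exporter of cyclic nucleotides, was the lowest of the pumps from E12.5 on, at 1.77, 6.22, 24.9, 60.2 and 219.9 CPM. Its 3 later steps were 4.01-fold, 2.42-fold and 3.65-fold. In the adult 65.6% of endothelial barcodes had a UMI, and 35.6% after thinning. At E9.5 the barcodes without endothelial genes had 2.70 CPM, above the endothelial level.

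Among the carriers, Slco1c1 had the highest level from E12.5 to P8. The thyroxine carrier stood at 0.765, 129.6, 1042, 1640 and 1704 CPM. It was 169-fold higher at E12.5 than at E9.5 (interval 122 to 243, from 35 UMIs) and 8.04-fold higher at E16.5 than at E12.5. The later steps were 1.57-fold and 1.04-fold. With a mitochondrial limit of 5% the step from E16.5 to P8 was 2.00-fold.

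Slco1a4 was the last member to reach 20 CPM. It had 0 UMIs in 5644 barcodes at E9.5, which allows a share of up to 0.0532% of barcodes with a UMI, 5 UMIs at E12.5 and 345 at E16.5 (8.12 CPM). P8 had 266 CPM, 32.8-fold above E16.5 (interval 29.5 to 36.6), and the adult 1712, 6.43-fold above P8. Against the floor of 3 counts in the E9.5 library, the adult level was at least 26110-fold higher. The same gene was at 3.55, 66.3 and 104 CPM at E16.5, P8 and adult in barcodes without endothelial genes.

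Slco2b1, the carrier of steroid sulphates, went the other way after birth. Its levels were 1.49, 29.6, 111, 114 and 59.5 CPM. The adult level was 0.522 of that at P8 (interval 0.492 to 0.553), and the median over all genes compared was 0.07 on the log2 scale. This fold passed the 2-fold mark at 0.491 with median-ratio scaling and at 0.4998 with a mitochondrial limit of 5%. At E12.5 the barcodes without endothelial genes had 30.1 CPM, as much as the endothelial ones, and in the adult 38.0. The ratios of endothelial to other barcodes were 1.24, 0.985, 3.11, 4.47 and 1.57 from E9.5 to adult. Summed choroid plexus markers in the endothelial barcodes were at 33.9, 189, 391, 495 and 44.9 CPM from E9.5 to adult. Pericyte markers were higher in the adult (1461) than at P8 (814). Microglia and macrophage markers were at 54.1, 261, 87.7, 70.9 and 83.7 CPM from E9.5 to adult. At E12.5, 18.9% of endothelial barcodes held 2 or more of them. The part of other cell types in the level of Slco2b1 was not tested.

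**Figure D1:**
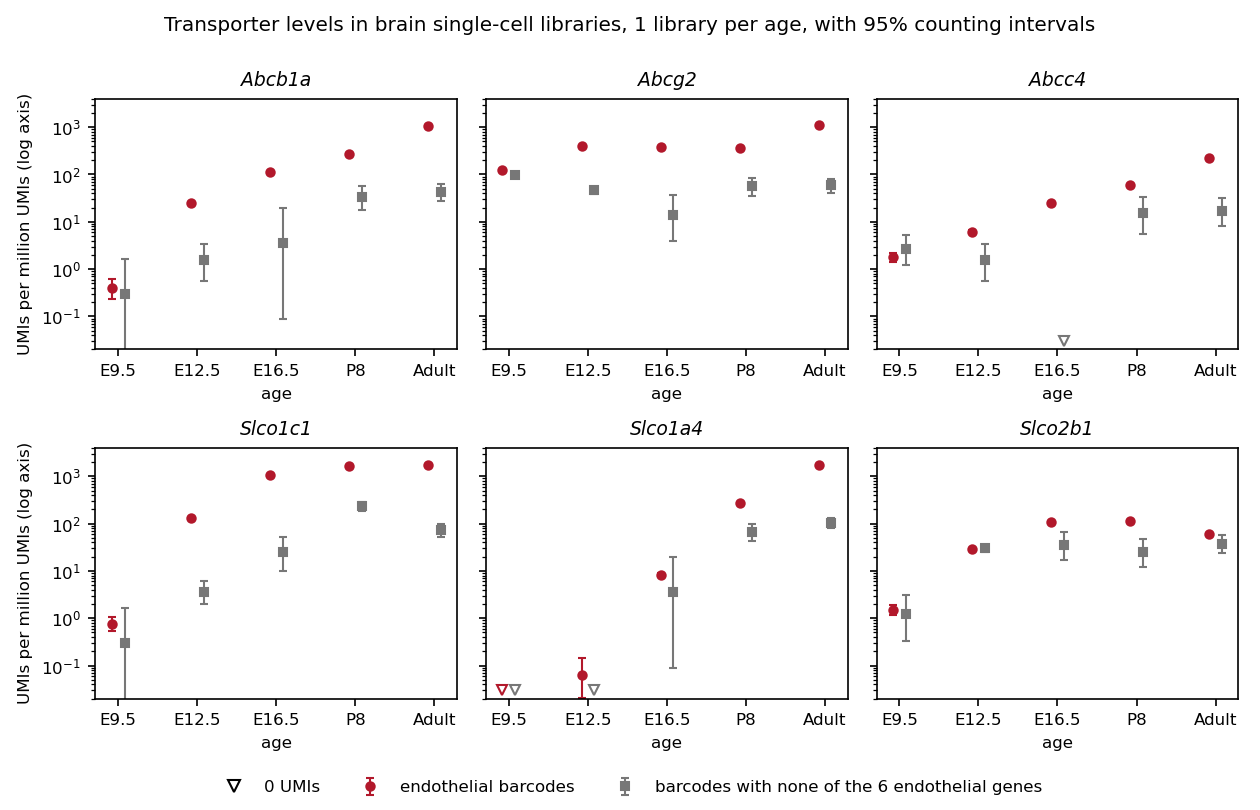
CPM (log axis) of each transporter at 5 ages, in endothelial barcodes (circles) and in barcodes with none of the 6 endothelial genes (squares), with exact 95% counting intervals, 1 library per age; open triangles stand for 0 UMIs. Abcb1a and Abcc4 are higher at each later age, Slco1c1 is near its adult level at P8, Slco1a4 starts at 0 and ends at 1712, and Slco2b1 is at 114 at P8 and 59.5 in the adult.

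Counted per step, 4 of the 4 members tested were at least 2-fold higher at E12.5 than at E9.5, against 19.1% of all genes tested, where tested means 20 CPM in either library. Of those 4, Abcb1a, Slco1c1 and Slco2b1 reached 20 CPM in the later library only, as did Abcc4 at E16.5 and Slco1a4 at P8, so that their 2-fold mark was fixed by being tested and the counts are given as a description. At E16.5 over E12.5 this held for 4 of 5, against 8.16%. At P8 over E16.5 it held for 3 of 6, against 10.7%, and in the adult over P8 for 4 of 6, against 13.7%. Pericyte markers were higher over the same steps (85.3, 235, 814 and 1461 CPM from E12.5 to adult). With barcodes holding 2 or more markers of any 1 other cell type left out, erythroid genes set aside, the 4 counts were the same. Single barcodes came to carry several members at once. After thinning, at least 3 of the 6 were detected in 0.0%, 2.55%, 19.7%, 48.9% and 93.7% of endothelial barcodes from E9.5 to adult. Unthinned, the shares were 0.053%, 26.8%, 76.8%, 91.6% and 98.0%.

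Most close relatives of the members were low in adult endothelial barcodes. Of 10 other ABC drug or conjugate transporters, 1 reached 20 CPM in the adult, Abcc5 at 25.7, followed by Abcc6 at 9.51 and Abcc1 at 4.95. Abcb1b, a related gene next to Abcb1a, was at 2.84 CPM against 1076 for Abcb1a. Reads of related genes can be lost or misplaced in counting, so the split between them is uncertain. Of 9 other SLCO genes, Slco1a6 had 32.3, Slco3a1 30.4 and Slco2a1, the prostaglandin carrier, 2.62 CPM in the adult. Slco1a6 lies in the same gene family as Slco1a4 and carries the same doubt. At earlier ages some stood above members: Slco3a1 was at 39.85 CPM at E9.5 and 44.2 at E12.5, and Slco2a1 at 91.7 at E16.5. In the list of 7 other carriers, Slc7a5, the large amino acid carrier, had 684 and Slc22a8, an organic anion carrier, 349 CPM in the adult. Slc22a8 was highest at E16.5, at 526. Of 11 nuclear receptors and other sensors known to control transporter genes, Nr3c1, the glucocorticoid receptor, had 327, Nfe2l2 143 and Thra 107 CPM in the adult. Nr1i2, the pregnane X receptor, had 0 UMIs there and Nr1i3 4 UMIs.

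Across the 5 ages, the genes whose log level ran most like each member were taken by Pearson correlation over 4835 genes. With 5 points that share their libraries, this is a description only. They were Tgfb2, Itsn2 and 9430020K01Rik for Abcb1a, Ddx5, Slc2a1 and Arfgap3 for Abcg2, and Ensa, Crybg3 and Lims2 for Abcc4. For the carriers they were Bcl7b, St3gal6 and Anxa4 for Slco1c1, Tjp1, Zmiz1 and Ubr1 for Slco1a4, and Qdpr, Lhfpl2 and Mospd1 for Slco2b1. Slc2a1, the glucose transporter of the barrier, stood at 271, 1174, 1224, 830 and 5220 CPM from E9.5 to adult. Tjp1, a tight junction scaffold, stood at 156, 163, 186, 400.5 and 633 CPM beside Slco1a4.

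Most members differed between barcodes led by arterial and by venous genes from E12.5 on. Barcodes with at least 2 genes of one list, and more of it than of the other, numbered 927 arterial-led and 1678 venous-led at E16.5, 816 and 2315 at P8, and 867 and 905 in the adult. The list genes themselves changed. From P8 to adult, 3 of 6 arterial and 3 of 5 venous genes at 20 CPM were at least 2-fold higher, and 1 venous gene lower. Arterial Gkn3 was at 92.5 and 965 CPM, and venous Slc38a5 at 772 and 214. Whether the rule picks like barcodes at each age was not tested. Slco1a4 was at 26.5 CPM in arterial-led and 1.20 in venous-led barcodes at E16.5, and at 731 and 137 at P8. In the adult the order was opposite, with 1069 in arterial-led and 2046 in venous-led barcodes. Venous over arterial, the ratios were 0.0452, 0.188 and 1.91. At E16.5, arterial-led barcodes held 276 of the 345 UMIs of Slco1a4.

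Abcb1a had the same turn, with 416 against 245 CPM at P8 and 767 against 1312 in the adult. Abcg2 had 396 against 353 at P8 and 690 against 1352 in the adult. Slco1c1 stayed higher in arterial-led barcodes, with ratios of 0.694, 0.576 and 0.786 at the 3 ages. Slco2b1 was higher in venous-led ones at the same ages, with ratios of 1.37, 1.61 and 4.26, and 16.05 against 68.35 CPM in the adult. At E12.5 it had 33.2 CPM in arterial-led and 28.2 in venous-led barcodes, a ratio of 0.851. The ratios at E12.5 were 0.444 for Abcb1a, 0.731 for Abcg2, 0.538 for Abcc4 and 0.285 for Slco1c1. At E16.5 the pumps were closer to equal, with ratios of 0.793 for Abcb1a, 0.966 for Abcg2 and 0.898 for Abcc4. Abcc4 was higher in arterial-led barcodes at P8, with 79.5 against 55.1 CPM. Its adult levels were 204 and 225, and 235 and 239 with other types left out, where the intervals overlap. Barcodes led by neither list made up 21.8%, 28.6% and 42.0% of endothelial barcodes at the 3 ages. In them Slco2b1 was above the venous-led level, at 140, 137 and 119 CPM. In the adult they also exceeded both led sets for Slco1a4, at 2266 CPM, Slco1c1, at 2034, and Abcg2, at 1421. Abcb1a, at 1218, lay between the led sets, and Abcc4 was at 239, against 204 and 225 in them. In adult arterial-led barcodes the summed smooth muscle markers were at 1124 CPM against 42.8 in venous-led ones, and pericyte markers at 1864 against 1411. With barcodes holding 2 or more markers of another type left out, smooth muscle markers were at 9.89 and 7.43 CPM, and the adult ratios were 1.63 for Slco1a4, 1.5 for Abcb1a, 1.74 for Abcg2, 0.724 for Slco1c1 and 3.67 for Slco2b1. The 4 capillary genes of the marker list differed between the same barcodes. Mfsd2a, a lipid carrier of the barrier, was at 1138 CPM in arterial-led and 653 in venous-led barcodes at P8, and at 277 and 378 in the adult. Slc16a1, a lactate carrier, was at 1817 and 1560 at P8, and at 103 and 429 in the adult. Tfrc, the transferrin receptor, was lower in arterial-led barcodes at both ages, with 634.5 against 1041 and 108 against 717, and so was Rgcc, with 160 against 177.5 and 224 against 358. The order of Mfsd2a and Slc16a1 thus turned between these ages as that of Slco1a4, Abcb1a and Abcg2 did. The part of capillary cells in these differences was not tested. All of this rests on 1 library per age.

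**Figure D2:**
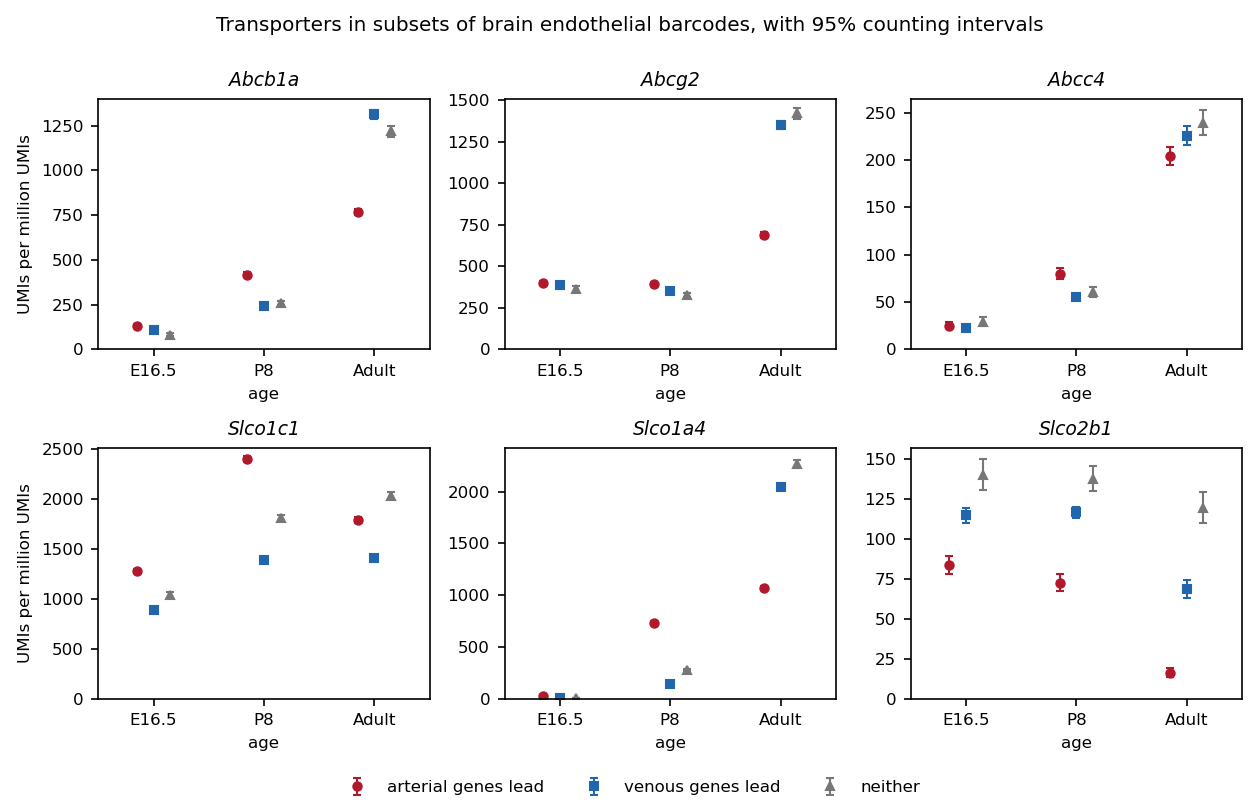
CPM of each transporter at E16.5, P8 and adult, in endothelial barcodes led by arterial genes (circles), by venous genes (squares) or by neither (triangles), with exact 95% counting intervals. Slco1a4 is higher in arterial-led barcodes at P8 (731 against 137) and lower there in the adult (1069 against 2046).

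In chromatin, the carriers on chromosome 6 were among the 15.6% of genes tested that were called higher in adult barrier endothelium, and the 14.4% at P6. Peaks that overlap a gene or lie within 50 kb of it were counted in each list and expressed per 50000 peaks of that list, since list lengths differ. Of the 6 members, Slco1c1 and Slco1a4 had more peaks in barrier than in peripheral endothelium in the adult and at P6 by limma, adjusted over all genes tested. Abcb1a, Abcg2, Abcc4 and Slco2b1 did not pass that test at either age. More peaks in the window of a gene does not tell fewer cells of a type from less open chromatin per cell.

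For Slco1c1, adult lists held 7 and 6 peaks in brain and 6 and 4 in retina endothelium. Heart and kidney lists held 0 in 4 of 4 libraries, liver lists 0 and 1, and lung lists 2 and 1. Per 50000, barrier libraries held 4.42 to 9.10 and peripheral ones 0 to 3.23. The difference was 2.49 on the log2 scale (SE 0.27, limma adjusted p = 3.03e-06). At P6 the barrier lists had 4 to 10 peaks (2.74 to 7.36 per 50000) and the peripheral ones 0 to 5 (0 to 3.47), with a difference of 1.10 (SE 0.20, adjusted p = 0.000692).

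For Slco1a4, the adult lists held 7 and 10 peaks in brain, 8 and 5 in retina, 1 and 1 in heart, 3 and 4 in kidney, and 0 in each liver and lung library. Kidney was thus the peripheral organ with the most, at up to 5.75 per 50000, just above the lowest barrier library at 5.52. The difference was 2.37 (SE 0.23, adjusted p = 1.00e-06), and at P6 it was 1.53 (SE 0.22, adjusted p = 8.82e-05), with 3.29 to 7.36 in barrier against 0 to 3.30 per 50000 in peripheral libraries. These calls stand against a background of 15.6% of 18910 genes called higher in adult barrier endothelium and 14.4% of 19607 at P6, and a share of that size among 6 genes is about 1 gene.

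The other members gave smaller differences. In the adult Abcb1a differed by -0.17 (SE 0.20), Abcg2 by 0.00 (SE 0.16) and Abcc4 by -0.06 (SE 0.13). Slco2b1 differed by 0.81 (SE 0.34, adjusted p = 0.0652, and 0.0259 in the planned fit of all 66 libraries), and 2 adult liver libraries with 12 and 14 peaks were the highest of all libraries per 50000. Abcb1a had 11 and 8 peaks in heart and 7 and 7 in brain, or 15.5 ± 4.54 and 8.43 ± 0.946 per 50000 (SD, n = 2 each). Per the file headers, the names of the aligned files differ between libraries by the letters fil, which splits the libraries mostly by whole organs. Neither headers nor labels say what the letters stand for. Among adult endothelial libraries, those of brain, kidney and liver carry these letters, and those of retina, heart and lung do not. Among libraries with the letters, brain against kidney and liver, the adult differences were 3.20 for Slco1c1, 2.44 for Slco1a4 and 0.88 for Slco2b1, the last then past the threshold (adjusted p = 0.0019). Among the others, retina against heart and lung, they were 1.78, 2.30 and 0.75. For Abcb1a the 2 sets gave 0.50 and -0.85, opposite in sign. At P6 the letters are carried by 1 brain and by no retina endothelial library. Set against kidney and liver, that 1 library gave differences of 2.15 for Slco1c1 and 2.33 for Slco1a4. Without the letters, brain and retina against heart and lung, they were 0.53 (limma adjusted p = 0.12) and 0.93 (adjusted p = 0.0206).

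At E12, where brain was set against trunk and heart, 0 of 6 members passed, and 0.0912% of 19739 genes did in either direction. Abcb1a (0.43, SE 0.17, unadjusted p = 0.0219) and Slco1a4 (0.63, SE 0.25, unadjusted p = 0.0213) were under 0.05 before adjustment. Slco1a4 had 5, 6 and 5 peaks in brain, 1 to 4 in heart and 2 to 3 in trunk. Per 50000 these were 2.25 to 2.70 in brain and 0.830 to 1.98 in heart and trunk. Slco1c1 had 7 to 9 in brain and 2 to 9 in the other lists, which overlap. Without heart replicate 3, the shortest E12 list, Abcb1a passed at 0.53 (limma adjusted p = 0.0137), as did 4.55% of all genes tested.

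The difference between ages was tested for the barrier contrast itself. For Slco1c1 the adult difference exceeded the P6 one by 1.39 on the log2 scale (SE 0.33, limma adjusted p = 0.0113), and 6.53% of genes passed this test in either direction. For Slco1a4 the excess was 0.85 (SE 0.32, adjusted p = 0.112), which did not pass. Adult and P6 barrier lists held 4 to 7 and 4 to 10 peaks near Slco1c1, with medians of 6.80 and 4.08 per 50000. Peripheral lists held 0 to 2 and 0 to 5, with medians of 0 and 2.37. At 0 peaks the prior count and list length set the log2 value. Peripheral lists held 19464 to 47334 peaks in the adult and 43882 to 76326 at P6. No alternative setting was run for this test.

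**Figure D3:**
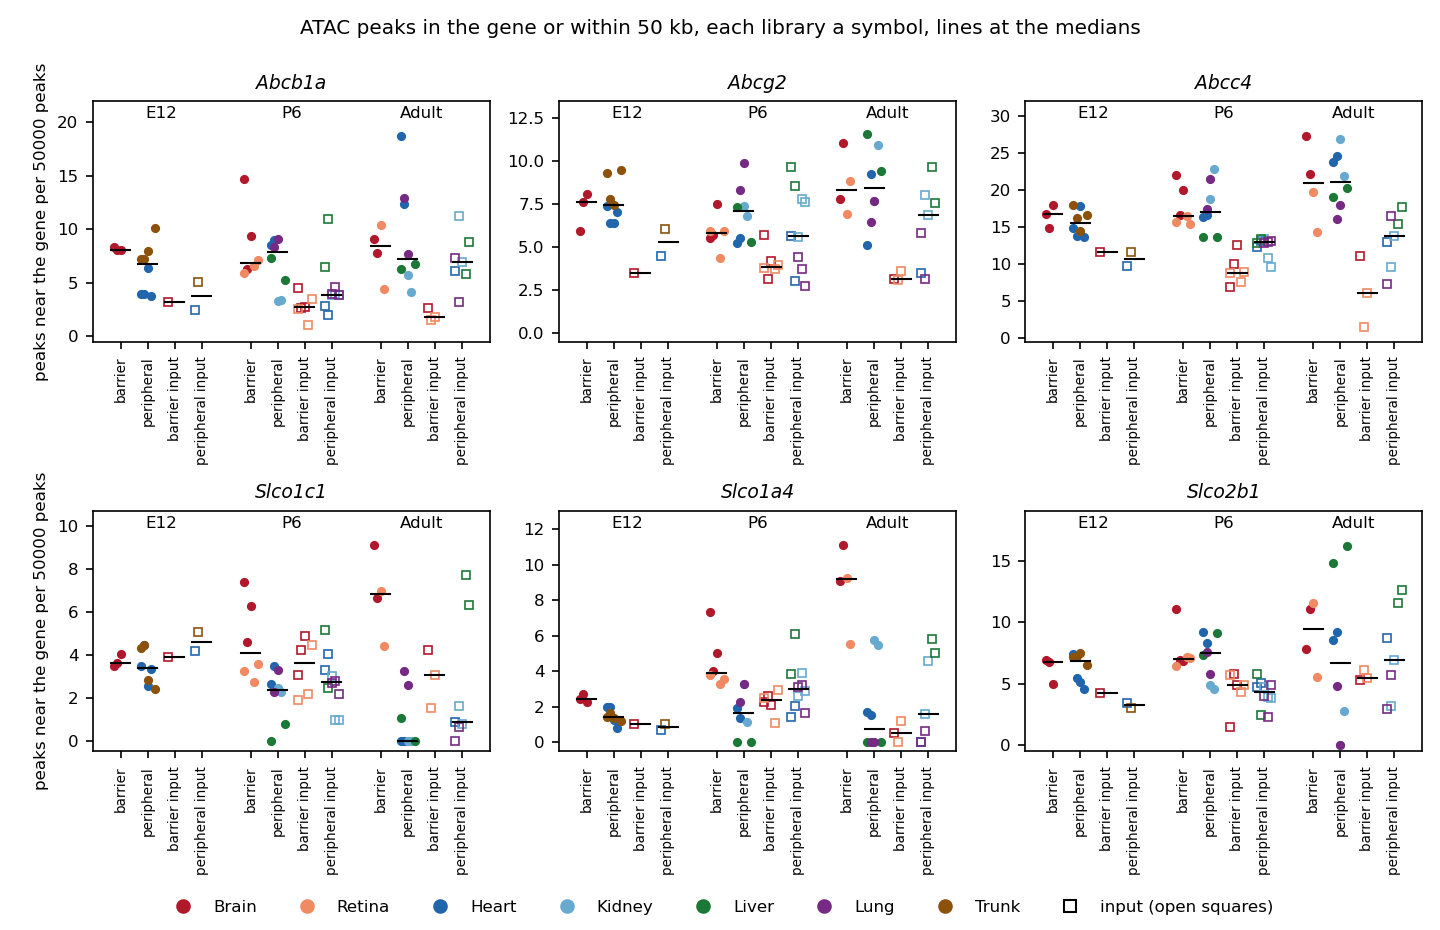
Peaks that overlap each gene or lie within 50 kb, per 50000 peaks of the list, for each ATAC library at E12, P6 and adult; filled circles are endothelial and open squares input libraries, coloured by organ, with black lines at the medians. Adult Slco1c1 values are 4.42 to 9.10 in barrier and 0 to 3.23 in peripheral endothelium, while Abcb1a, Abcg2 and Abcc4 overlap between the sides.

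Set against nuclei of whole brain and retina, the 3 pumps and Slco1a4 had more peaks in adult endothelium. Slco1a4 (3.30, SE 0.36, adjusted p = 0.000402), Abcb1a (1.69, SE 0.33, adjusted p = 0.0102), Abcc4 (1.67, SE 0.33, adjusted p = 0.0103) and Abcg2 (1.32, SE 0.28, adjusted p = 0.0145) were the members called by limma. That is 4 of 6, against 2.91% of 19518 genes called higher and a median over all genes of 0.23. Slco1c1 (1.02, adjusted p = 0.0662) and Slco2b1 (0.64, adjusted p = 0.209) did not pass. Brain input itself had 8 peaks near Slco1c1, against 7 and 6 in brain endothelium, and 1 near Slco1a4, against 7 and 10. It had 21 near Abcc4, against 21 and 20, 6 near Abcg2, against 6 and 10, and 5 near Abcb1a, against 7 and 7. This input was 1 library with a list of 94933 peaks, and the brain endothelial lists held 38465 and 45094. Retina inputs had 1 and 10 peaks near Abcc4, against 17 and 13 in retina endothelium. With the same number of top peaks taken from each list, 0 of the 4 calls remained.

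At P6, Abcb1a (1.503, SE 0.27, adjusted p = 0.00329), Abcc4 (0.96, SE 0.18, adjusted p = 0.0042) and Slco1a4 (0.94, SE 0.25, adjusted p = 0.0213) were called higher by limma than in input, 3 of 6 against 9.41% of 19906 genes. Slco2b1 (0.82, adjusted p = 0.0542), Abcg2 (0.52, adjusted p = 0.088) and Slco1c1 (0.42, adjusted p = 0.226) were not. Leaving out any 1 of the 3 P6 retina endothelial libraries or retina input replicate 1 ended the call of Slco1a4, with limma adjusted p of 0.0517 to 0.0606. Abcb1a had 8, 11 and 15 peaks in brain and 12, 12 and 11 in retina endothelium. The inputs held 12, 5 and 4 in brain and 2, 7 and 4 in retina.

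Within brain endothelium no member passed the test of peak counts between ages. For adult against P6, 0 of 6 members and 0.0106% of 18809 genes passed in limma (either direction), and for P6 against E12, 0 of 6 and 0.00% of 19414. Before adjustment, Slco1a4 was under 0.05 in the limma tests of both (0.89, SE 0.37, unadjusted p = 0.0281, and 1.09, SE 0.29, unadjusted p = 0.00427). So was Slco1c1 for P6 against E12 (0.71, SE 0.26). On simulated counts with Poisson spread only, the 2 tests recovered 37% and 55.5% of genes changed 4-fold. Real libraries can vary more. These tests hang on P6 brain replicate 1. Without it, Abcg2 (0.53), Abcc4 (0.44), Slco1c1 (0.57) and Slco1a4 (1.16) passed for adult against P6, as did 32.6% of all genes tested, and Slco1a4 (0.83, adjusted p = 0.0298) for P6 against E12, as did 11.3%.

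At the gene starts, Slco1c1 was the member with a complete split between barrier and peripheral libraries after birth, which did not pass after adjustment. A peak within 500 bp of its start was found in 4 of 4 adult barrier and 0 of 8 peripheral endothelial libraries, and in 6 of 6 and 0 of 8 at P6. Fisher's exact test, two-sided, gave p = 0.00202 and 0.000333, and 0.0943 and 0.105 after adjustment over all gene starts with a peak. The test counts libraries, and libraries of 1 organ are not independent of each other, so it does not measure the spread between organs. With the same number of top peaks taken from each list, the start had a peak in 3 of 4 adult and 3 of 6 P6 barrier libraries and 0 of 8 peripheral ones at either age. A complete split was seen at 1.30% of 21227 starts in the adult and 0.179% at P6. At E12 the start was open in 3 of 3 brain libraries, 4 of 4 trunk libraries and 3 of 4 heart libraries, and a split was seen at 0.122% of starts. By the authors' fold over local background, the E12 peaks were 5.26 to 6.90 in brain and 3.0 to 4.44 in trunk and heart. Whole brain and retina inputs had a peak there in 1 of 3 adult, 3 of 6 P6 and 1 of 1 E12 libraries, and peripheral inputs in none of 19.

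The start of Abcb1a was open in 4 of 4, 6 of 6 and 3 of 3 barrier libraries at adult, P6 and E12, and in 0 of 10 barrier inputs, while 3 of 10 peripheral inputs had it at P6. Peripheral endothelium had it too: in 2 of 8 adult libraries, 1 each of heart and lung, in 4 of 8 at P6, all 4 of heart and lung, and in 4 of 8 at E12, all 4 of trunk. With the same number of top peaks taken from each list, barrier libraries had it in 1 of 4, 2 of 6 and 0 of 3. Peripheral ones then had it in 2 of 8, 1 of 8 and 0 of 8. The main starts of Abcg2 (position 58640546) and Abcc4 (chr14, position 118706219) were open in all 37 endothelial libraries and, with the exception of Abcc4 in 1 adult barrier input, in all 29 inputs. With equal numbers of top peaks Abcg2 kept its peak in every endothelial library. Abcc4 then had one in 2 of 4, 3 of 6 and 1 of 3 barrier and 8 of 8, 1 of 8 and 3 of 8 peripheral libraries at adult, P6 and E12. Another Abcg2 start at position 58596672 had a peak in 0 of 4 adult barrier and 6 of 8 peripheral libraries (Fisher's exact p = 0.0606, adjusted p = 0.709). The start of Slco1a4 (chr6, position 141856220) was open in 3 of 4 adult barrier libraries and 1 of 8 peripheral ones, in 3 of 6 and 0 of 8 at P6, and in none of 11 at E12. Inputs had it in 6 of 6 barrier and 5 of 10 peripheral libraries at P6, more often than endothelium, and in 1 of 3 and 0 of 7 in the adult. The Slco2b1 start at chr7, position 99706842, was open in 2 of 4 and 3 of 8 in the adult, 6 of 6 and 6 of 8 at P6, and 3 of 3 and 8 of 8 at E12. Its inputs had a peak in 0 of 3 and 2 of 7 in the adult and 1 of 6 and 8 of 10 at P6.

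A region inside Slco1a4 was open in every barrier library at all 3 ages. It lies at chr6:141827498-141828317 (820 bp), 28.3 kb downstream of the start within the gene. It had a peak in 4 of 4, 6 of 6 and 3 of 3 barrier endothelial libraries at adult, P6 and E12, and in 0 of 24 peripheral ones. Fisher's exact p was 0.00202, 0.000333 and 0.00606, and 0.123, 0.0461 and 0.385 after adjustment over all regions of the genome, under 0.05 at P6 only. A complete split has the smallest p that these library numbers allow, and 0 regions of the genome were under 0.05 in the adult or at E12. Here too libraries were counted and not organs, so p-values of regions do not measure the spread between organs. With the same number of top peaks taken from each list, the region had a peak in 0 of 4, 3 of 6 and 0 of 3 barrier libraries and in 0 of 24 peripheral ones, so the split was no longer complete. The authors' fold at this region was 3.01 to 4.57 in the adult, 3.52 to 5.85 at P6 and 4.25 to 5.33 at E12. Barrier inputs had it in 0 of 3, 2 of 6 and 0 of 1 libraries. At E12 it was open in 3 of 3 brain libraries while the start of the gene was open in none, and the E12.5 single-cell library held 5 UMIs of Slco1a4.

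The Slco1c1 start region, chr6:141523561-141524990 (1430 bp), split the sides completely in the adult and at P6, where it also passed (adjusted p = 0.0461). Another region, 36.9 kb upstream of Slco1c1 at chr6:141487253-141487595, split them in the adult only, with adjusted p = 0.123 like the others of that age. It lies within Pde3a, and peaks in a window cannot be assigned to one gene. In the adult 3 more regions did the same, 13.8 kb downstream of the Abcg2 start (chr6:58654094-58654633), 58.1 kb downstream of the Slco1a4 start (chr6:141797744-141798511) and 203 kb downstream of the nearest Abcc4 start (chr14:118473365-118474886). At P6 and E12 these adult splits were not seen. The Slco1a4 region at 58.1 kb and the Abcc4 region each had a peak in 4 of 8 peripheral endothelial libraries at P6 and 8 of 8 at E12, and in 2 of 3 barrier and 2 of 7 peripheral adult inputs. The region upstream of Slco1c1 had one in 2 of 8 and 6 of 8 peripheral libraries at P6 and E12 and in 2 of 3 adult barrier inputs. P6 inputs had it in 6 of 6 barrier and 7 of 10 peripheral libraries. By the authors' fold, its adult peaks were 6.13 in brain and 7.58 in retina input, against 3.33 to 3.94 in barrier endothelium. For the Slco1a4 region at 58.1 kb these were 4.46 and 7.23 against 3.52 to 4.70. For the Abcc4 region they were 3.84 and 3.53 against 3.78 to 5.47. The Abcg2 region was open in 2 of 6 barrier and 1 of 8 peripheral libraries at P6, in none at E12 and in no adult input. At E12 a region 11.5 kb downstream of the Abcb1a start (chr5:8578470-8578797), in a stretch shared with Rundc3b, was open in 3 of 3 brain libraries and 0 of 8 others (adjusted p = 0.385).

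In all, 6 of the 108 regions near members that were tested in the adult (5.56%) were open in every barrier and no peripheral library, against 1.31% of 105468 regions of the genome. At P6 these were 2 of 141 (1.42%) against 0.421%, and at E12 2 of 147 (1.36%) against 1.53%. Whether the regions lie in exons or introns was not analysed here.

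**Figure D4:**
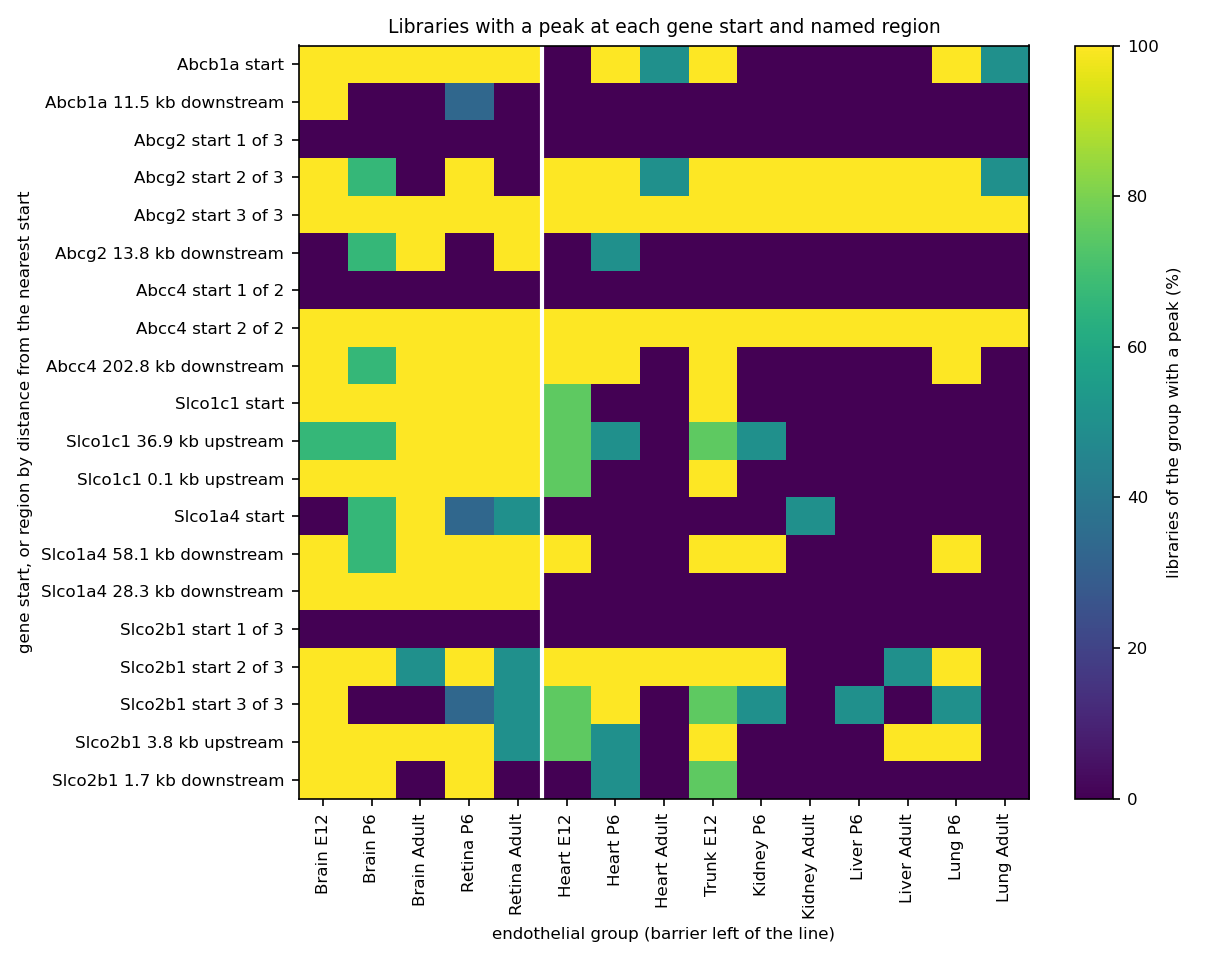
Share of libraries (%) in each of the 15 endothelial groups with a peak at each gene start (within 500 bp; several starts of 1 gene are numbered by position on the chromosome) and at each named region, labelled by its distance from the nearest start; barrier groups are left of the white line. The region 28.3 kb downstream of the Slco1a4 start is at 100% in all 5 barrier groups and at 0% in the 10 others.

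Over the 15 endothelial groups, the genes whose peak counts ran most like each member were named in the same way, as a description over groups that share libraries' depth. For Slco1a4 the nearest was Slco1a1 (r = 0.963), followed by Amy1 and Amy2a1. Slco1a1 is its neighbour on chromosome 6, and the 50 kb windows of both genes overlap, so some peaks count for both. The windows of Amy1 and Amy2a1, on another chromosome, overlap each other too. For Slco1c1 it was Itm2a (r = 0.941), followed by Radil and Fam205c. Abcb1a ran with Bms1, Septin4 and Prrc2c, Abcg2 with Sirpb1c, Gm15319 and Gm2115, Abcc4 with Rftn2, Sparc and Nr3c2, and Slco2b1 with Rap1gds1, Tpbgl and Pnmal1. Tpbgl lies in the window of Slco2b1 and shares peaks with it.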

How the data were processed

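ATAC peak lists and single-cell UMI counts of a mouse endothelial series were used. The authors ran MACS2 2.1.2 on each library by itself, per the file headers, in broad mode without a control (tags shifted by -100 bp and extended to 200 bp, q-value 0.05). Each deposited peak has a fold, the ratio of its pileup signal to the local background, and −log10 of its p-value and q-value. The build is mm10 per the submitters' processing notes, which name Bowtie2, SAMtools 1.13, Picard, Cell Ranger and Seurat 4.0.4. The deposited single-cell counts are UMIs per gene and barcode, not normalized. The E16.5 matrix was read with the gene rows of the other 4 libraries. No doublet caller was run; barcodes with 2 or more markers of another cell type were left out in an alternative.

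Peaks were counted per gene with 50 kb each side, over 21883 RefSeq protein-coding genes, and tested with limma 3.58.1 (trend, prior count 0.5, Benjamini-Hochberg, threshold 0.05) in R 4.3.3. Only the libraries compared entered each fit. A fit of all 66 had been planned as the main one and was replaced after the data were seen: on simulated counts of the adult barrier contrast with 200 genes changed 4-fold, 28.8% of its calls were false (20988 genes), against 1.41% with only the libraries compared (18411 genes), which recovered 70% of the changed genes. For P6 barrier and E12, 5.67% and 6.18% of the calls of the fit of all 66 were false, and 11.5% to 35.9% in the remaining contrasts. The fits used recovered 37% of changed genes for brain adult against P6, 44.5% for adult endothelial against input and 55.5% for brain P6 against E12. A member not called there is not shown to be unchanged. The simulated counts had Poisson spread only, with no further spread between libraries of a group. Shares of recovered genes and false calls in the real data may therefore differ. Fisher's exact p-values (scipy 1.17.1) were adjusted over all gene starts or regions, not over the members as planned. Single-cell folds need 20 CPM in 1 of the 2 libraries.

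The 6 members and all gene lists were chosen with earlier results of these data known. Named genes are the 6 members, the 3 highest of each fixed list in adult barcodes, with chosen relatives named after their values were seen, and the 3 genes most like each member; 1 gene of these lists is not reported here. The 54 bulk RNA-seq libraries were not used here. Alternatives changed the window, list length, peak threshold, prior count, filter, libraries, replicate block, cell rules and scaling.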

Additional observations from a re-analysis of the deposited data

Results flagged for a closer look

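The adult barrier contrast of Slco1c1 exceeded that at P6 by 1.386 on the log2 scale (limma adjusted p = 0.0113), by a test of the difference between the ages in 1 fit. The median of the adult peripheral lists was 0 peaks, where the prior count and list length set the log2 value. In 5 of 60 pairings of a member with a set of 4 to 10 libraries, 1 library lay apart in peaks near the member per 50000 peaks. For a single pairing, chance gives about 1 in 20. Some sets share libraries, so the pairings are not independent of each other. For Abcb1a, E12 heart endothelial replicate 3 had 6.395 against 3.952 in the next library, from 5 peaks in the shortest E12 endothelial list. For Slco2b1, P6 brain endothelial replicate 1 had 11.05 against 7.127, from 6 peaks in a short list, and P6 brain input replicate 1 had 1.518 against 4.295, from 4 peaks. P6 liver input replicate 4 stood apart for both Abcb1a, at 10.99 against 6.447, and Slco1a4, at 6.106 against 3.913.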

How the results depend on the processing

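All alternative values of the single-cell counts of members at least 2-fold higher stayed within 1.5 times the main count. With lists shortened to the same number of top peaks, the members called in either direction numbered 1 at E12 (main 0), with 3.1% of all genes called, 0 for adult endothelial against input (main 4), with 14.2%, and 1 for brain P6 against E12 (main 0), with 6.54%. The same setting left 0 complete splits at starts in the adult and at P6 (main 1 each), and 0, 0 and 1 at regions in the adult, at P6 and at E12. With peaks of −log10 q of at least 5, P6 barrier against peripheral had 4 members called (main 2), with 21.3% of all genes (main 29.1%), and regions 2 in the adult (main 6) and 4 at E12 (main 2). For P6 endothelial against input, a 10 kb window gave 5 (main 3), with 10.4% of all genes (main 12.5%). Libraries with the letters fil include 1 P6 brain endothelial library, so no calls are given for tests of that group among them. Those without the letters gave 1 for P6 barrier against peripheral, with 18.1%. The settings by these letters were chosen after seeing the data. The planned fit of all 66 libraries called 3 members for adult barrier against peripheral, adding Slco2b1, with 26.2% of all genes (main 37.6%), 5 for adult endothelial against input, adding Slco1c1, with 11.5% (main 4.52%), and 5 for P6 endothelial against input, adding Abcg2 and Slco2b1, with 29.1%; the other counts were the same. Leaving out 1 library gave 0 to 1 members at E12, 0 to 4 for brain adult against P6 and 0 to 1 for brain P6 against E12. With a replicate block, adult barrier against peripheral called 2 members (36.3% of all genes), P6 barrier 2 (19.9%), E12 0, adult endothelial against input 5 (13%) and P6 endothelial against input 3 (8.19%); both brain age tests called 0. Over 600 pairs of libraries with the same number the mean r of their deviations was -0.003, and 90 pairs were above 0.1. With other numbers these were 0.002 over 1181 pairs and 195. The pairs span all organs and ages, so whether numbers pair libraries of 1 organ and age was not tested. No called value reversed direction. A list shows only presence above the caller's threshold, so a peak missing from a short list is not shown to be absent; P6 brain replicate 1 and E12 heart replicate 3 limit the age and E12 tests.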
